A study of Mus musculus with 18 samples.

Results

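The miR-302/miR-367 and miR-290 clusters are the best known miRNAs of mouse embryonic stem cells and the early embryo, and 10 of their mature 3p arms were examined here in normal adrenal glands and in neuroblastomas of transgenic mice. The 10 members were chosen by name from the 1966 miRNAs of the small RNA sequencing table, where the names carry the mouse prefix mmu. They are mmu-miR-302a-3p, mmu-miR-302b-3p, mmu-miR-302c-3p, mmu-miR-302d-3p and mmu-miR-367-3p from the first locus, and mmu-miR-291a-3p, mmu-miR-292a-3p, mmu-miR-293-3p, mmu-miR-294-3p and mmu-miR-295-3p from the second. Of 18 libraries, 3 came from adrenal glands of CRE-negative mice (AG), 7 from tumors with an IGF2BP1 transgene and CRE (TI, R26 IGF2BP1) and 8 from tumors with both IGF2BP1 and MYCN transgenes and CRE (TIM, labelled IMP1/MYCN). Of the TI tumors, 6 were labelled IGF2BP1 +/+ and 1 was labelled IGF2BP1 +/-, and 1 of the 7 came from the adrenal gland. Of the TIM tumors, 2 were from the adrenal gland, 1 was from the spine, and the others carry no site in their label. The transgenes lie at the Rosa26 locus behind a stop cassette that an iCRE driven by Dbh, a gene of the sympatho-adrenal lineage, removes, and the study describes both transgenes as built without their native 3' untranslated regions. The table names the group of a column but not the mouse, so the libraries are numbered within their group in the order of the columns. The labels give only the absence of CRE for AG, and no ages were used. The site and genotype of a single tumor library cannot be told from its column.

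A miRNA is cut as a pair of arms from a hairpin, and the arm loaded into Argonaute pairs with messenger RNAs mainly through its seed, bases 2 to 8 from the 5' end. The miR-290 cluster of rodents and the conserved miR-302/miR-367 cluster are transcribed under pluripotency factors, the former from the earliest embryo on and the latter slightly later, and most of their 3p arms share a seed that shortens the G1 phase and represses inhibitors of the cell cycle and of reprogramming. Both are largely silent in adult tissue. The study lists the miR-302-3p seed family among those with a predicted site in the 3' untranslated region of MYCN, so that the question for these miRNAs is whether they were present in the tissue at all, and at what level.

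The hairpins of miR-302b, miR-302c, miR-302a, miR-302d and miR-367 lie within 580 bp at chr3:127545228-127545807 (GRCm38.p6, plus strand). They fall within an intron of Larp7, a protein-coding gene on the opposite strand, and within the long non-coding RNA gene Gm51018 of RefSeq. The 9 hairpins of the miR-290 locus lie within 2216 bp at chr7:3218626-3220841. This span, though not every hairpin in it, overlaps the protein-coding gene Nlrp12 and the long non-coding RNA gene D7Ertd143e. The hairpins of the 5 members are on the plus strand, opposite to Nlrp12, and overlap annotated Nlrp12 exons in GENCODE.

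The mature sequences of 8 of the 10 members matched RefSeq (GRCm38.p6) by name. They are shown because the seed, in capitals, sorts the members into families and shows which more abundant miRNAs share a seed with them.
miR-302b-3p: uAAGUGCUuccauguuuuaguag
miR-302d-3p: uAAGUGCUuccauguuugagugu
miR-291a-3p: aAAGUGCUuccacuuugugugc
miR-294-3p: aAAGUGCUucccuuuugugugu
miR-295-3p: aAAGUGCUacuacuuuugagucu
miR-302c-3p: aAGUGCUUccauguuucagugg
miR-293-3p: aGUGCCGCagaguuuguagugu
miR-367-3p: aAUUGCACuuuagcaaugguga
The miR-302 arms lie at chr3:127545275-127545297 (miR-302b-3p), chr3:127545406-127545427 (miR-302c-3p) and chr3:127545665-127545687 (miR-302d-3p), and miR-367-3p lies at chr3:127545779-127545800. The arms of the second locus lie at chr7:3218968-3218989 (miR-291a-3p), chr7:3220390-3220411 (miR-293-3p), chr7:3220691-3220712 (miR-294-3p) and chr7:3220815-3220837 (miR-295-3p). All are on the plus strand.

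Of the 8 sequences, 5 from both loci carried the seed AAGUGCU, and no miRNA outside the loci had it among the 1675 names of the table that matched a RefSeq sequence. The annotated miR-302c-3p begins 1 base further in than miR-302b-3p, which moves its seed to AGUGCUU. The seed of miR-293-3p, GUGCCGC, was found in no other of these miRNAs. The seed of miR-367-3p, AUUGCAC, was shared with 5 miRNAs outside the loci, namely miR-25-3p, miR-32-5p, miR-92a-3p, miR-92b-3p and miR-363-3p. The 6 arms of the miR-17 family, growth-promoting miRNAs that MYC proteins induce, hold the letters AAGUGC 1 base further in, so their seed is AAAGUGC. For comparison, 1 relative of each kind is given.
miR-17-5p: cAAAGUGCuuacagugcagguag
miR-25-3p: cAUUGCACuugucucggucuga
These lie at chr14:115043684-115043706 (plus strand) and chr5:138165332-138165353 (minus strand). Within the first locus, miR-302b-3p and miR-302d-3p were identical over their first 17 bases. Within the second, miR-291a-3p and miR-294-3p were identical over their first 11. Reads of these pairs are told apart only by the bases that follow. How reads with several matches were assigned is not given in the sources used here.

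The libraries held 11641696 to 23435621 reads on miRNAs, and between 973 and 1205 miRNAs had at least 1 read in a library. The deposited CPM values, which are scaled by the library total and its TMM factor, all correspond to whole reads. The value of a single read ranged from 0.0336 to 0.0907 CPM, and 3 reads corresponded to 0.101 to 0.272 CPM. All limits and intervals from reads cover counting error only. Levels are compared between miRNAs without a correction for length. The printed arms are 22 to 23 bases long, and the relatives miR-92a-3p and miR-106b-5p are 21. Whether equal CPM stands for equal amounts of different miRNAs was not tested.

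The members were close to the limit of detection in every group. All 18 libraries together held 324 reads of the 10 members, which is 0.956 CPM of all reads on miRNAs without the TMM factor. The highest value of any member in any library was 0.907 CPM, for miR-293-3p in TI library 6. Mean levels over the 18 libraries ran from 0.00771 CPM for miR-367-3p to 0.236 CPM for miR-293-3p, at ranks 1479 and 842 of 1966. No member reached 1 CPM in 3 libraries, a level passed by 726 of the 1966 miRNAs, so 0 of 10 members passed the filter on low values. Low levels were not peculiar to these members, since 67.5% of all miRNAs in the table had a mean under 1 CPM.

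**Figure D1:**
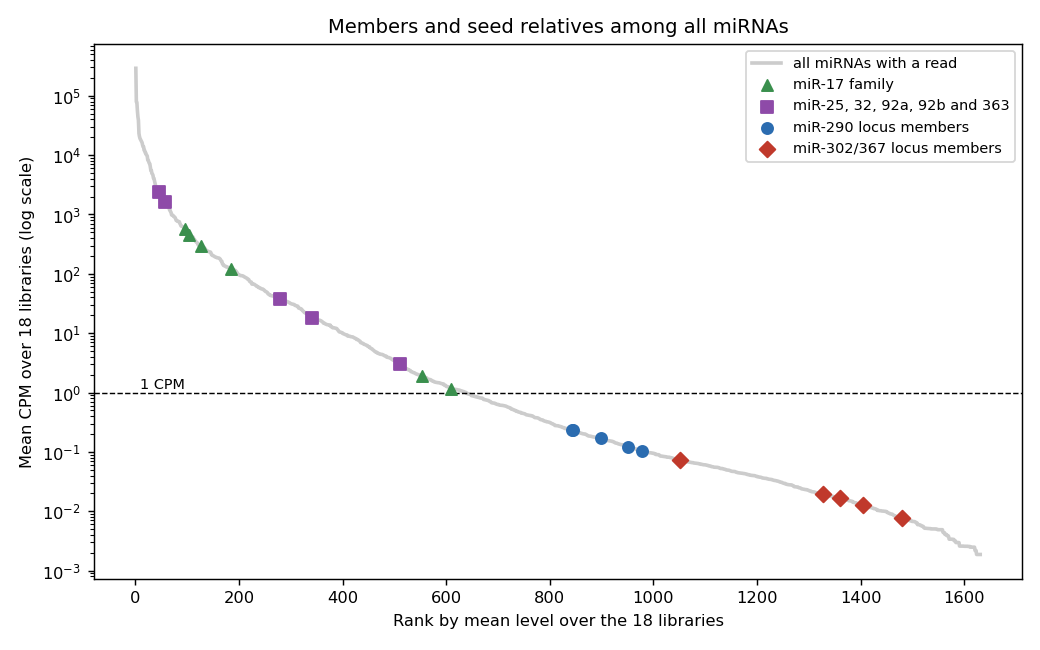
Mean CPM over the 18 libraries (vertical axis, log scale) against rank for each miRNA with a read (grey line), with the members of both loci and their seed relatives marked. The 10 members lie between 0.00771 and 0.236 CPM, below the dashed line at 1 CPM, and all 11 seed relatives lie above it.

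At least 1 read in at least 1 library was found for 9 of 10 members in AG, 8 in TI and 9 in TIM. Over all libraries each of the 10 members had a read, and 88 of the 180 values of a member in a library were above 0. The AG count rested on AG library 1, without which 5 members had a read in AG. With a read required in more libraries of the group than not, the counts were 5 in AG, 5 in TI and 4 in TIM. These were miR-290 arms, except for miR-302b-3p in AG. All 5 miR-290 arms had a read in 11 or more of the 18 libraries, and no miR-302/miR-367 arm had one in more than 7.

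**Figure D2:**
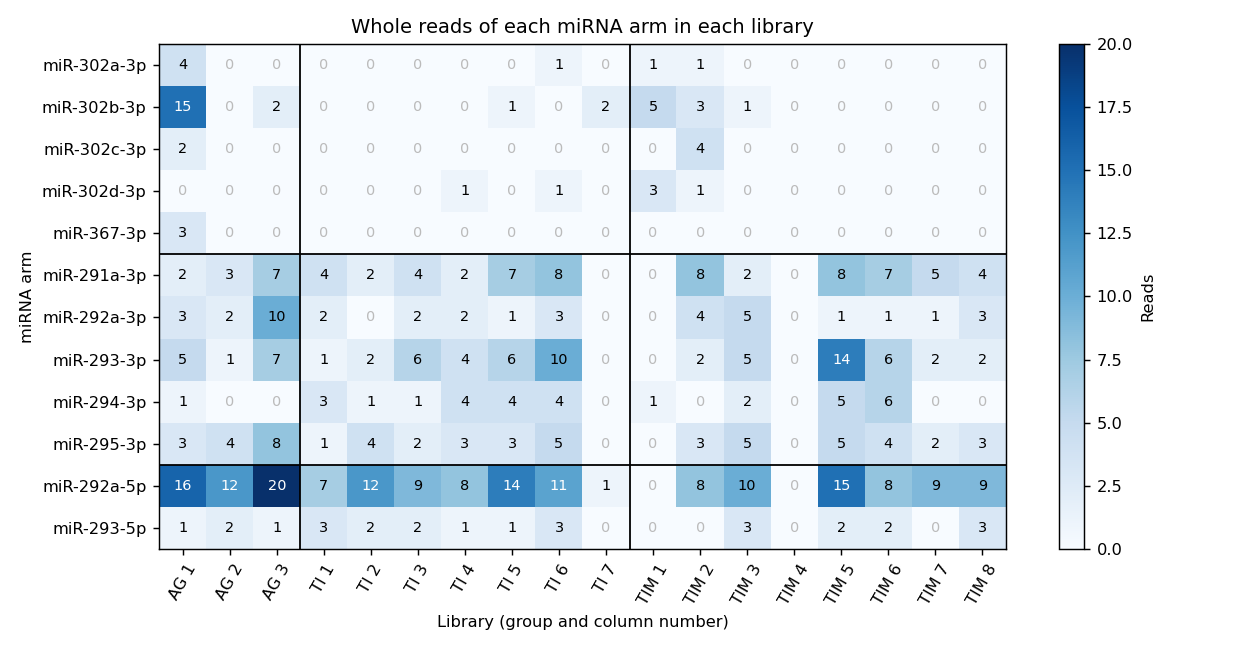
Whole reads (colour and printed number) of the 10 members and of the miR-292a and miR-293 5p arms (rows) in each of the 18 libraries (columns). The miR-302/miR-367 rows are mostly 0 outside AG library 1 and TIM libraries 1 and 2, while the miR-290 rows hold a few reads in most libraries and none in TI library 7 and TIM library 4.

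The miR-302/miR-367 arms were sparse and unevenly spread. Together they had 51 reads, of which 24 (47.1%) were in AG library 1 and 42 (82.4%) were in AG library 1 and TIM libraries 1 and 2. In AG the summed level was 1.11, 0 and 0.0925 CPM in the 3 libraries. In TI it ran from 0 to 0.181 CPM with a median of 0.0534 CPM, and in TIM from 0 to 0.353 CPM with a median of 0 CPM. Of the 18 libraries, 9 had no read of any of the 5 arms, and these included 5 of the 8 TIM libraries. The groups overlapped, and within AG 1 library set the mean.

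The most abundant arm of this locus was miR-302b-3p, which carries the shared seed, with 29 reads in 7 libraries. It had 15, 0 and 2 reads in AG, 0 to 2 reads in TI with a median of 0, and 0 to 5 reads in TIM with a median of 0. The mean level was 0.262 ± 0.377 CPM in AG (SD, n = 3), 0.0274 ± 0.0529 CPM in TI (SD, n = 7) and 0.0429 ± 0.0717 CPM in TIM (SD, n = 8). In AG the SD exceeded the mean, since AG library 1 held 0.693 CPM. The difference of TI minus AG was -0.26 in log2(CPM + 1) (two-sided exact permutation test, p = 0.25, adjusted p = 0.51), and it was -0.03 without AG library 1. The difference of TIM minus AG was -0.24 (two-sided exact permutation test, p = 0.291, adjusted p = 0.543), and it was -0.01 without that library.

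Its neighbours in the locus had fewer reads. The arm miR-302a-3p had 7 reads in 4 libraries, with 4, 0 and 0 in AG and at most 1 in any tumor library. For miR-302d-3p, whose 5' end matches that of miR-302b-3p, 6 reads were found in 4 tumor libraries and none in AG, where 0 reads allow up to 0.0441 CPM (3 reads over the group, without the TMM factor, as for the limits that follow). The 6 reads of miR-302c-3p lay in AG library 1 (2 reads) and TIM library 2 (4 reads), and TI had none, which allows up to 0.0241 CPM. The arm with the unrelated seed, miR-367-3p, had 3 reads, all of them in AG library 1. In the tumors its count of 0 allows up to 0.0241 CPM in TI and 0.0205 CPM in TIM.

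The miR-290 arms were found in most libraries of all 3 groups at a few reads each. The 5 arms had 273 reads in 16 libraries, and their summed level was 0.865 ± 0.541 CPM in AG (SD, n = 3), 1.06 ± 0.848 CPM in TI (SD, n = 7) and 0.685 ± 0.504 CPM in TIM (SD, n = 8). In AG the libraries had 0.647, 0.466 and 1.48 CPM. In TI the lowest, median and highest were 0, 0.905 and 2.72 CPM, and in TIM they were 0, 0.704 and 1.47 CPM. The 3 groups overlapped, and the spread within each was larger than the differences between their means.

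In 3 tumor libraries the locus was nearly without reads. TI library 7 and TIM library 4 had 0 reads of the 5 arms and TIM library 1 had 1, while each of the other 15 libraries had 9 to 33. TIM library 4 had no read of any of the 10 members, and TIM library 1 had 9 reads of the miR-302/miR-367 arms. The 3 libraries held 17641163, 16123887 and 21361882 reads on miRNAs and 1041, 1125 and 1182 miRNAs with a read, which is within the range of the others. These libraries are named after their values were seen.

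**Figure D3:**
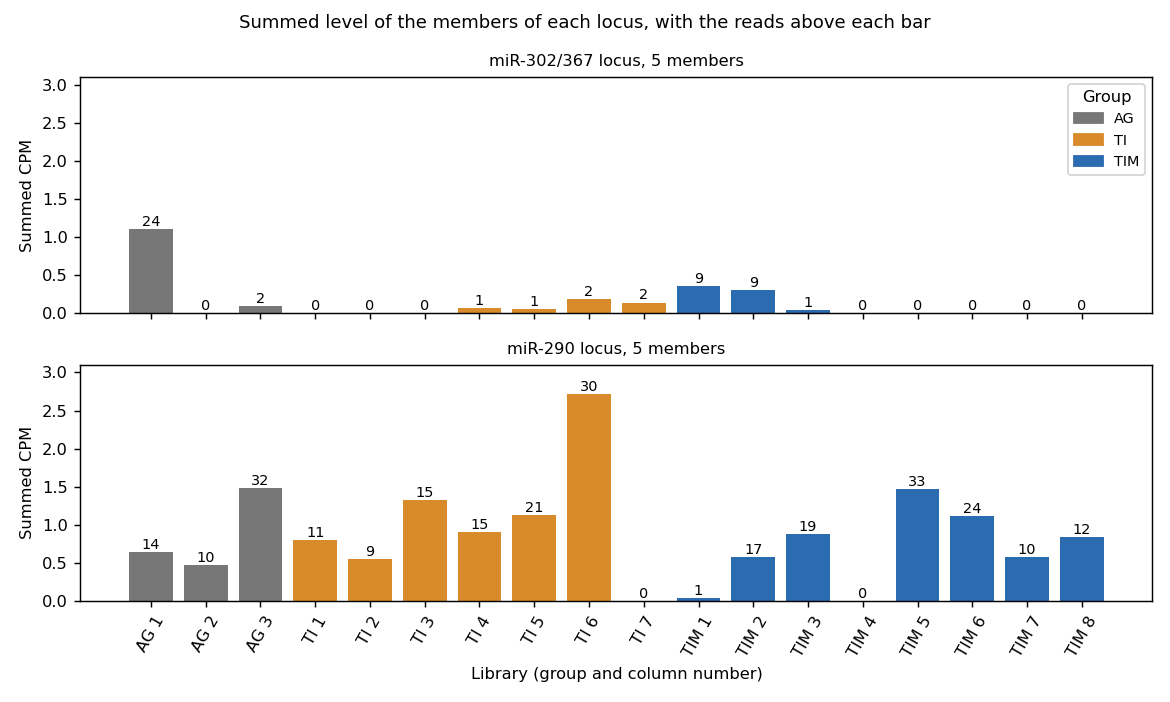
Summed CPM of the 5 miR-302/miR-367 members (upper panel) and the 5 miR-290 members (lower panel) in each library, coloured by group, with the reads printed above each bar. The upper panel is highest in AG library 1 (1.11 CPM), the lower in TI library 6 (2.72 CPM), and TI library 7 and TIM library 4 have no miR-290 read.

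Among the arms of the locus, miR-291a-3p and miR-293-3p had 73 reads each, in 15 libraries each. The former, which carries the shared seed, had 2, 3 and 7 reads in AG, 0 to 8 in TI with a median of 4, and 0 to 8 in TIM with a median of 4.5. Its mean level was 0.185 ± 0.122 CPM in AG (SD, n = 3), 0.284 ± 0.239 CPM in TI (SD, n = 7) and 0.201 ± 0.147 CPM in TIM (SD, n = 8). The latter, with its own seed, had 5, 1 and 7 reads in AG, 0 to 10 in TI with a median of 4, and 0 to 14 in TIM with a median of 2. Its mean level was 0.201 ± 0.141 CPM in AG (SD, n = 3), 0.313 ± 0.315 CPM in TI (SD, n = 7) and 0.182 ± 0.205 CPM in TIM (SD, n = 8). Neither arm separated the groups, and both had tumor libraries above and below all AG libraries.

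The arm miR-295-3p had 3, 4 and 8 reads in AG, 0 to 5 in TI and 0 to 5 in TIM. Of miR-292a-3p, AG had 3, 2 and 10 reads, TI 0 to 3 and TIM 0 to 5. Its mean level was 0.232 ± 0.201 CPM in AG (SD, n = 3), 0.110 ± 0.0996 CPM in TI (SD, n = 7) and 0.0902 ± 0.0901 CPM in TIM (SD, n = 8), and AG library 3 alone held 10 of the 15 reads in AG.

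The arm whose groups came closest to standing apart was miR-294-3p, which carries the shared seed. AG had 1, 0 and 0 reads, TI 0 to 4 with 6 of 7 libraries above 0, and TIM 0 to 6 with 4 of 8 above 0. The mean level was 0.0154 ± 0.0267 CPM in AG (SD, n = 3), 0.170 CPM in TI (n = 7) and 0.0792 CPM in TIM (n = 8). The difference of TI minus AG was 0.20 in log2(CPM + 1) (two-sided exact permutation test, p = 0.0667, adjusted p = 0.182), where the smallest p the design allows is 0.0167. The 2 groups overlapped, since TI library 7 had 0 reads.

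To ask whether the members differed between normal adrenal gland and tumors, and between the tumor types, each was compared on log2(CPM + 1) by an exact test over all arrangements of the group labels. In TI against AG, 0 of 10 members had an unadjusted p under 0.05, while 29.0% of the 1631 miRNAs with a read did. In TIM against AG, 0 of 10 members and 33.0% of all miRNAs did, the lowest member p being 0.182 for miR-292a-3p (exact permutation test, 2-sided). Between TIM and TI, 0 of 10 members and 12.3% of all miRNAs did, the lowest member p being 0.151 for miR-294-3p (exact permutation test, 2-sided). After Benjamini-Hochberg adjustment this test called 0 of 1631 miRNAs (0.00%) in each comparison. Without tied values, the smallest p that the arrangements allow was 0.0167 in TI against AG, 0.0121 in TIM against AG and 0.000311 in TIM against TI. Ties at 0 reads raise this bound for some members. In TI against AG, miR-302c-3p and miR-367-3p had reads in AG library 1 only. Their p could therefore not fall below the 0.6 observed for each (exact permutation test), and the count of 0 does not test them. Too few libraries with reads also kept miR-302a-3p and miR-302d-3p above 0.05 in that comparison, whatever the arrangement. The same held for miR-302c-3p, miR-302d-3p and miR-367-3p in TIM against AG. Between TIM and TI it held for miR-302a-3p, miR-302c-3p, miR-302d-3p and miR-367-3p. The counts of 0 do not test these arms either. The median difference of the members was -0.05 in TI against AG, -0.05 in TIM against AG and -0.02 in TIM against TI, beside medians of 0, 0.01 and 0.01 over all miRNAs with a read. In no comparison were the groups of a member without overlap, but the share over all miRNAs was not counted. A member with 0 reads in some library of both groups cannot stand apart, so this is no result about the members.

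**Figure D4:**
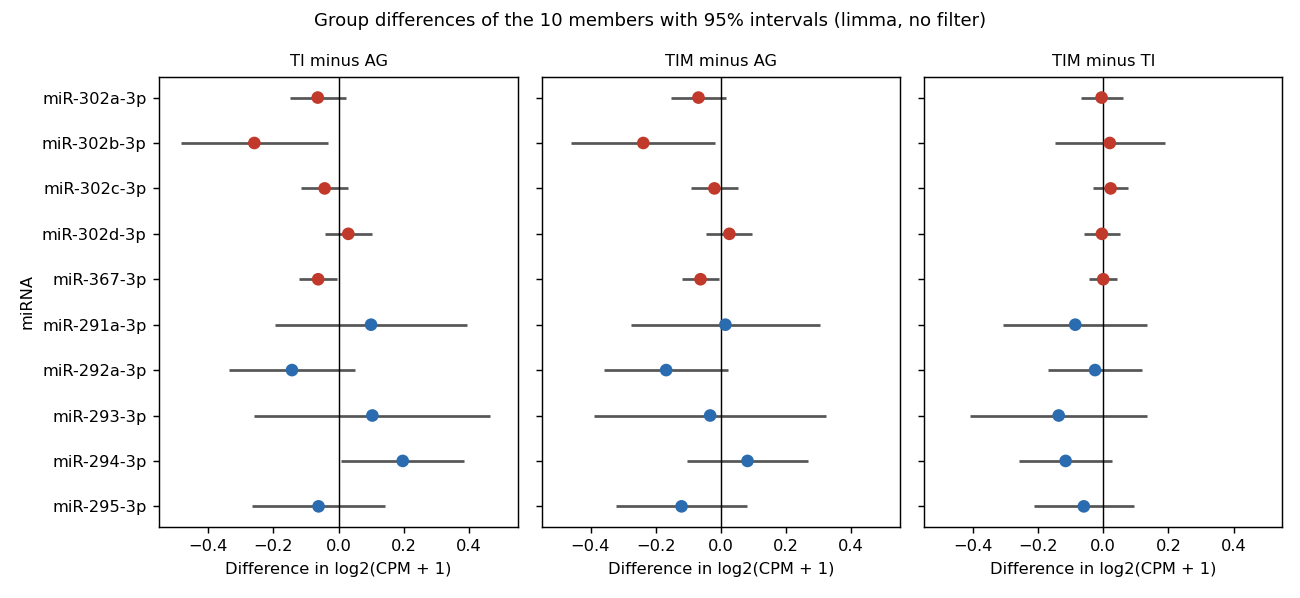
Difference in log2(CPM + 1) of each member (points, red for miR-302/miR-367 and blue for miR-290) in the 3 comparisons, with 95% intervals from limma without a filter (horizontal lines). All intervals lie within -0.48 and 0.47. Before adjustment, those that exclude 0 are miR-302b-3p and miR-367-3p in both tumor types against AG and miR-294-3p in TI against AG. The share of all miRNAs with such an interval was not counted. All 3 reads of miR-367-3p lay in AG library 1. Without that library the miR-302b-3p differences were -0.03 in TI against AG and -0.01 in TIM against AG.

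Tests that estimate the spread across all miRNAs gave the same counts after adjustment. With limma and a filter of 1 CPM in 3 libraries no member could be tested, while 55.8%, 51.4% and 5.23% of the 726 tested miRNAs were called in the 3 comparisons in the same order. With limma and no filter, 0 of 10 members were called in TI against AG, beside 27.4% of 1631 miRNAs, and 3 had an unadjusted p under 0.05. In TIM against AG 0 of 10 were called, beside 24.9%, and 2 had an unadjusted p under 0.05. Between TIM and TI 0 of 10 were called, beside 1.66%, and none had an unadjusted p under 0.05. The lowest adjusted p-values of a member in these limma fits were 0.0828, 0.10 and 0.458. With edgeR on the whole reads and no filter, 0 members were called in each comparison, beside 26.9%, 22.9% and 0.368% of 1631 miRNAs, and 2, 2 and 0 had an unadjusted p under 0.05. With DESeq2, which gave an adjusted p for 6 of the 10 members, 0 were called, beside 30.3%, 28.6% and 7.30%, and 1, 0 and 0 had an unadjusted p under 0.05. The 95% intervals of limma without a filter bounded the differences between -0.48 and 0.47 in TI against AG, between -0.46 and 0.32 in TIM against AG and between -0.41 and 0.19 in TIM against TI. On this scale a change at such low levels is understated. The percentages beside these fits are shares with an adjusted p under 0.05. Shares of all miRNAs with an unadjusted p under 0.05 were not counted for them, and cannot be smaller. The unadjusted counts of members are therefore not set against all miRNAs.

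The unadjusted calls of edgeR were for miR-302b-3p, miR-294-3p and miR-367-3p. For miR-302b-3p the log2 fold change was -2.89 in TI against AG (edgeR, unadjusted p = 0.0254, adjusted p = 0.0819) and -2.31 in TIM against AG (edgeR, unadjusted p = 0.0408, adjusted p = 0.124). For miR-294-3p it was 3.01 in TI against AG (edgeR, unadjusted p = 0.0439, adjusted p = 0.126). The miR-367-3p value in TIM against AG (edgeR, unadjusted p = 0.0364, adjusted p = 0.115) rests on 3 reads of AG library 1. Fitted fold changes at so few reads depend on the prior count that edgeR adds, and none of these passed the threshold.

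The hairpins' other arms were at or below the members' level, with 1 exception. Of 18 further arms of the 2 loci in the table, 10 had no read in any library, and 0 of 18 passed the filter. Both arms of miR-292b, whose hairpin lies opposite that of miR-292a, were among those at 0. The exception was miR-292a-5p (chr7:3219200-3219221), the arm opposite the member miR-292a-3p, with a mean of 0.526 ± 0.295 CPM over all libraries (SD, n = 18).
miR-292a-5p: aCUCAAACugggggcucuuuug
miR-293-5p: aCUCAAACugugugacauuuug
Both 5p arms carry the seed CUCAAAC, which differs from those of the 8 members with a sequence, and miR-293-5p lies at chr7:3220356-3220377.

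The arm miR-292a-5p had 4.23 times as many reads as miR-292a-3p, and more reads than it in 16 libraries, while miR-293-3p had 2.81 times as many as miR-293-5p. By group, miR-292a-5p had 16, 12 and 20 reads in AG, 1 to 14 in TI and 0 to 15 in TIM. Its mean level was 0.742 ± 0.183 CPM in AG (SD, n = 3), 0.619 ± 0.299 CPM in TI (SD, n = 7) and 0.364 ± 0.259 CPM in TIM (SD, n = 8). The difference of TIM minus AG was -0.37 in log2(CPM + 1) (two-sided exact permutation test, p = 0.0485, adjusted p = 0.147). It did not pass after adjustment, and the groups overlapped.

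Of the 5p arms of the miR-290 locus, miR-292a-5p and, less closely, miR-293-5p followed its members over the libraries. The remaining 5p arms of this locus had at most 3 reads in all and could not be compared. In log2(CPM + 1) over 18 libraries, miR-292a-5p was the miRNA most like the sum of the 5 miR-290 members among 1102 miRNAs with a read in at least 9 libraries (Pearson's r = 0.845, Spearman's rho = 0.698, rank 1 by both). The next by Pearson's r was miR-293-5p (r = 0.653, with Spearman's rho of 0.525 at rank 7). These are descriptions over libraries of 3 groups that share their depth with the members, and the measure was chosen after the values were seen. In TI library 7, TIM library 1 and TIM library 4, where the miR-290 members together had at most 1 read, miR-292a-5p had 1, 0 and 0 reads.

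The seed relatives of the members were far more abundant. The 6 arms of the miR-17 family summed to a mean of 1423 CPM and the 5 miRNAs with the seed of miR-367-3p to a mean of 4068 CPM over the 18 libraries, against 0.991 CPM for the 10 members together. All 11 relatives passed the filter. The highest was miR-25-3p at 2361 ± 1049 CPM (SD, n = 18), followed by miR-92a-3p at 1648 ± 1000 CPM (SD, n = 18), and the lowest was miR-106a-5p at 1.16 ± 0.841 CPM (SD, n = 18). The seed AUUGCAC was present mainly through miR-25-3p and miR-92a-3p in every group, with miR-367-3p at 0 in all 15 tumor libraries.

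Of the 11 relatives, 7 had a positive and 4 a negative difference in TI against AG. With limma, 3 passed as lower in TI and 0 as higher, beside 29.3% and 26.4% of 726 miRNAs called lower and higher (adjusted p under 0.05). The arm miR-32-5p was at 78.9, 55.5 and 74.0 CPM in AG and at 20.1 to 47.2 CPM in TI with a median of 27.9 CPM, so the groups did not overlap. It fell by 1.20 on the log2(CPM + 1) scale (limma, standard error 0.341, adjusted p = 0.00654). The other two were miR-20b-5p with -1.50 (limma, standard error 0.540, adjusted p = 0.0250) and miR-363-3p with -1.67 (limma, standard error 0.503, adjusted p = 0.00937). Both come from a miR-17 type cluster on the X chromosome. A further X-linked relative, miR-106a-5p, did not pass, with -0.13 (limma, adjusted p = 0.775). The positive values nearest to the threshold were those of miR-92a-3p, 1.43 (limma, unadjusted p = 0.0313, adjusted p = 0.0548), and miR-17-5p, 1.94 (limma, unadjusted p = 0.0474, adjusted p = 0.0773). On the whole reads edgeR called the same 3 relatives lower and these 2 higher, beside 55.4% of 726 miRNAs called, and DESeq2 also called miR-20a-5p and miR-106b-5p higher, beside 60.2%.

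In TIM against AG 8 of the 11 differences were positive and 3 passed with limma, 2 of them lower, beside 25.9% called lower and 25.5% called higher. These were miR-32-5p with -1.11 (limma, adjusted p = 0.0110), miR-363-3p with -1.45 (limma, adjusted p = 0.0212) and miR-17-5p with 2.23 (limma, adjusted p = 0.0441). Here edgeR called 3 higher and 1 lower, beside 48.5% of miRNAs called, and DESeq2 called 5 higher and 2 lower, beside 58.3%. Between TIM and TI 0 of 11 passed with limma, beside 5.23% of 726 miRNAs. With limma 1 had an unadjusted p under 0.05, and the share of all miRNAs at that threshold was not counted. In this comparison edgeR called 0 (beside 0.413% of miRNAs) and DESeq2 called 1, miR-20b-5p (beside 16.9%).

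These counts rested on few libraries. Without AG library 1, 1 relative passed in TI against AG and 0 in TIM against AG. Without TI library 5 the former count was 5, and without TIM library 2 or TIM library 5 the latter was 6 or 5. The call of miR-17-5p in TIM against AG was lost in 11 of 21 other settings, among them median ratio scaling (limma, adjusted p = 0.0544), no filter (0.0806), only these 2 groups in the model (0.0565), and the removal of any 1 AG library or of TIM library 3, 4, 6, 7 or 8 (0.0605 to 0.133). In the same comparison the call of miR-32-5p was lost in 2 of 21 settings and that of miR-363-3p in 5 of 21, both of them without the TMM factor (limma, adjusted p = 0.102 and 0.0700) and without AG library 1 (0.0616 and 0.157), and the latter also with edgeR (0.0574). In TI against AG, miR-20b-5p lost its call in 3 of 20 settings, miR-363-3p in 1 and miR-32-5p in 0. The directions of the relatives called by limma were the same under every scaling, filter and tool tried.

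Markers of other cell types were read in every group. All 4 neural and neuroendocrine miRNAs (miR-124-3p, miR-9-5p, miR-375-3p and miR-7a-5p) were detected in each group, and their sum was 45270 to 108200 CPM in AG, 32420 to 250100 CPM in TI and 43410 to 247600 CPM in TIM. Within this list miR-9-5p was at 362 to 583 CPM in AG, 3748 to 13090 CPM in TI and 4330 to 18820 CPM in TIM, and miR-124-3p was also above AG in every tumor library. By contrast miR-375-3p had a median of 26550 CPM in AG, 5166 CPM in TI and 7471 CPM in TIM, and miR-7a-5p one of 65880, 49990 and 72470 CPM, and the groups overlapped for both. The liver miRNA miR-122-5p was at 779.8 to 2592 CPM in AG and at no more than 82.4 CPM in any tumor. The sum of 4 leukocyte miRNAs was 414 to 602 CPM in AG, 51.1 to 333 CPM in TI and 67.5 to 212 CPM in TIM, and that of 4 stromal miRNAs was 122800 to 210400 CPM in AG, 16040 to 171500 CPM in TI and 16160 to 101700 CPM in TIM. Of 3 erythroid miRNAs the sum was 695 to 2420 CPM in AG, 339.8 to 4354 CPM in TI and 169 to 2533 CPM in TIM. The 3 muscle miRNAs summed to 175 to 207 CPM in AG, 46.6 to 344 CPM in TI and 77.4 to 22970 CPM in TIM. The part of these cell types in the members' reads was not tested. In bulk tissue, fewer cells with a miRNA and less of it per cell cannot be told apart.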

How the data were processed

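Per the labels, small RNA libraries were made from about 30 mg of tissue after TRIzol extraction, whereas the study's methods give the AllPrep kit for tissue. Per the study's methods Bowtie2 was used by the authors for alignment to mm10, and edgeR for normalization with TMM factors. The submitters' processing notes list cutadapt 2.8, Bowtie2 2.3.5.1, featureCounts 2.0.0 and edgeR 3.40 without their roles, and strand and multiple matches are not given in the sources used here. The deposited signal is a CPM value per miRNA and library. The authors included the TMM factor in the divisor, so the sums of the columns differ. CPM had been assumed as the unit when the tests were chosen, and the tests were kept. The 9 columns that hold the authors' log2 fold changes, p-values and FDR were not used.

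The value of 1 read was taken as each library's smallest value above 0, and 100% of values were whole multiples of it (tolerance 0.001 reads). The main test was limma 3.58.1 in R 4.3.3 (trend) on log2(CPM + 1) for the 726 miRNAs that reached 1 CPM in 3 or more libraries, fitted over all 18 libraries together, Benjamini-Hochberg adjustment and a threshold of 0.05. Each member was also tested by exact permutation of the group labels over the 1631 miRNAs with a read (Python 3.11.15, numpy 2.4.6, scipy 1.17.1), the two-sided p being the smaller tail doubled. The recovered reads were tested with edgeR 4.0.16 and DESeq2 1.42.0. The scripts were tested on simulated data. The samples are listed as separate tumors or glands, and no 2 columns of a group were identical. The study reports more tumors than mice for the IGF2BP1/MYCN model. Whether any TIM libraries came from the same mouse was not established, and the tests treat all libraries as independent. The 10 members, the 18 other arms, the 11 seed relatives and the cell type markers were chosen with earlier results of these data known. Named were all members, the other arms and relatives by these lists, and the 3 miRNAs most like each member that passed the filter, which no member did. Alternatives were pseudocounts of 0.1 and 5, other scalings and tools, no filter, only the 2 groups compared in the model, and each library left out in turn. Fits without a filter for edgeR and DESeq2, and some settings for the relatives, were added after seeing the data.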

Additional observations from a re-analysis of the deposited data

Results flagged for a closer look

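In 43 groups of 7 or 8 libraries that were examined, 5 had their highest library set apart from the others by a gap that exceeded Dixon's 95% critical value (0.568 for 7 libraries and 0.526 for 8) as a share of the whole range, on log2(CPM + 1). Chance gives about 1 in 20 for continuous values, a rate that does not hold for members mostly at 0 reads. Where 1 library held the only reads, the share is 1 by construction. For miR-302a-3p in TI the gap took all of the range (a share of 1), since TI library 6 had the only read. For miR-302b-3p in TI it took 0.60, with 2 reads in TI library 7 and 1 in TI library 5. For miR-302c-3p in TIM it took all of the range (a share of 1), since all 4 reads lay in TIM library 2. For miR-302d-3p in TIM it took 0.70, with 3 reads in TIM library 1 and 1 in TIM library 2. For the relative miR-20b-5p in TI it took 0.61, with 1.66 CPM in TI library 7 and no more than 0.604 CPM in the others.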

How the results depend on the processing

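No paired analysis was possible because nothing in the column names ties a library to a replicate number. The count of members called was 0 in every comparison under every setting run. No member passed the filter of 1 CPM in 3 libraries, so the settings that keep this filter could not test any member. The exact permutation test in its main setting called 0 of 1631 miRNAs after adjustment, so its 0 is not particular to the members. In the fits without a filter, the members' low reads limit what could be shown. Members with a read numbered 9, 8 and 9 in AG, TI and TIM, and 7, 5 and 8 when 3 reads in a library were required. They numbered 5, 5 and 4 when a read was required in more libraries than not. With 1 library left out they numbered 5 to 9, 7 to 8 and 8 to 9. The seed relatives called in TI against AG numbered 6 with only the 2 groups in the model, 5 with edgeR, 7 with DESeq2 and 7 with DESeq2 and no filter, and 1 to 5 with 1 library left out. In TIM against AG they numbered 7 with DESeq2 and 6 with DESeq2 and no filter, and 0 to 6 with 1 library left out. Between TIM and TI they numbered 1 without the TMM factor, with DESeq2, and with DESeq2 and no filter.

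Some differences of members near 0 changed sign, and the cause was not tested. In TIM against AG, miR-291a-3p had -0.0586 with a pseudocount of 0.1 and miR-293-3p had 0.0295 without the TMM factor. Between TIM and TI without the TMM factor, miR-302d-3p had 0.00437, miR-291a-3p 0.00122, miR-292a-3p 0.0271 and miR-295-3p 0.0137. With 1 library left out, the difference in TI against AG ran from -0.104 to 0.0179 for miR-302a-3p and from -0.116 to 0.0179 for miR-295-3p. In TIM against AG it ran from -0.11 to 0.0129 for miR-302a-3p, from -0.0425 to 0.0228 for miR-302c-3p, from -0.0425 to 0.0961 for miR-291a-3p and from -0.128 to 0.0411 for miR-293-3p. Between TIM and TI it ran from -0.0111 to 0.0129 for miR-302a-3p, from -0.00843 to 0.0452 for miR-302b-3p, from -0.0232 to 0.0119 for miR-302d-3p and from -0.0505 to 0.00861 for miR-292a-3p.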

Other observations

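The 3 libraries with most reads of the miR-302/miR-367 arms were compared by eye with the X-linked relatives, after the values were seen. AG library 1, with 24 such reads, had 6.56 CPM of miR-20b-5p and 12.9 CPM of miR-363-3p, against 2.05 and 2.08 CPM of miR-20b-5p and 5.04 and 4.86 CPM of miR-363-3p in the other AG libraries. TIM libraries 1 and 2, with 9 such reads each, had 5.33 and 9.29 CPM of miR-20b-5p and 5.1 and 6.83 CPM of miR-363-3p, the 2 highest TIM values of each. The X-linked relative miR-106a-5p was also highest of its group in AG library 1 (1.29 CPM) and TIM library 2 (3.16 CPM). In TIM library 1, however, it had 1.69 CPM, below the 2.52 and 1.91 CPM of TIM libraries 3 and 6. These are descriptions of single libraries, and no test was made.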
